A study of Mus musculus with 10 samples.

Results

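The genes described here are 10 genes of the NRF2 antioxidant program, chosen by symbol from the 55401 genes in the count table: Nfe2l2, which encodes NRF2, Keap1, Nqo1, Hmox1, Gclc, Gclm, Slc7a11, Txnrd1, Srxn1 and Gsr. RNA was sequenced from 10 subcutaneous KPN1.1 tumors grown in obese male C57BL/6J mice, 5 given liraglutide, a glucagon-like peptide-1 receptor agonist (GLP-1RA), and 5 given PBS as vehicle. KPN1.1 cells derive from mouse lung adenocarcinoma, and all 10 tumors came from this line. Obesity was induced by a high-fat diet in both groups, and the mice were 7 to 17 weeks old when the cells were injected into the flank. Liraglutide was given intraperitoneally at 0.2 μg per g of body weight per day once tumors were palpable, and tumors were taken 19 to 22 days after injection. A frozen fragment of each tumor held tumor cells and host cells together, so fewer cells of a type and less RNA per cell cannot be told apart. The labels do not say whether more than 1 tumor came from a mouse, and p-values measure the spread between these tumors.

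NRF2 is a transcription factor of the cap'n'collar family that, with a small MAF partner, binds antioxidant response elements (AREs) near genes for glutathione synthesis, thioredoxin reduction, quinone detoxification and heme breakdown. KEAP1 holds NRF2 at the CUL3 ubiquitin ligase, so that NRF2 is degraded until oxidants or electrophiles modify KEAP1. NRF2 is controlled mainly as a protein, so the Nfe2l2 transcript is not a measure of its activity. In lung adenocarcinoma the KEAP1 and NRF2 axis is a known site of recurrent mutation.

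Total counts were between 9927942 and 14480593 per tumor, and the share of mitochondrially encoded RNA was between 1.51% and 1.95%. Levels are given in CPM, counts scaled to the TMM-normalized library size, and 3 counts correspond to 0.207 to 0.302 CPM. The epithelial keratins Krt8, Krt18 and Krt19 were abundant in all tumors, as was Cdh1, with no fewer than 6082 counts. Of the markers of distal lung epithelium, Nkx2-1 had 175 to 1776 counts, Sftpb 777 to 6511, Napsa 4 to 30 and Sftpc 0 to 80. Napsa was therefore low, and Sftpc was near the floor in some tumors but at 5.96 CPM in liraglutide tumor 5. Epcam, a general epithelial marker, had 2 to 67 counts.

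Promoters of 7 of the 10 genes were matched in RefSeq (GRCm38.p6), each as 250 bases before and 50 bases after a transcription start, and were searched on both strands for the ARE core TGACNNNGC. Hmox1, Gclc and Gsr had no entry. The core was present in 4 of the 7: 240 bases before the start in Nfe2l2, 134 before it in Gclm, 92 before it in Txnrd1 (the start at chr10:82858956-82859255) and 28 after it in Srxn1. Of all 27025 genes with a promoter there, 3781 held the core in at least 1, and of all 32851 promoters 12.4% did. Gclm and Srxn1 are printed because their levels followed each other most closely across the tumors, with the ARE core in capitals in both. In Srxn1 the capitals also mark 2 copies of TGAGTCA, an AP-1 site by its letters, 102 and 45 bases before the start. Neither copy overlaps the match to TGACNNNGC. Of all promoters, 5.2% held this AP-1 motif (TGACTCA or TGAGTCA). With the 2 bases after it, the Srxn1 copy 45 bases before the start differs from TGACNNNGC only by G for C. That spelling was not searched, so the counts and shares of the core hold for TGACNNNGC only. Which of these sites serves as an ARE in Srxn1 was not tested. Slc7a11 had no core in this window and is printed for the letters TGATGNAA, the motif of the C/EBP-ATF response element, which occurs there on each strand, 66 and 47 bases before the start, and in 4.0% of all promoters. That motif was searched, and Slc7a11 chosen for it, after the values below were seen. A match describes letters only. The sequences run 5′ to 3′ on the strand of the gene.
Gclm, chr3:122245307-122245606, plus strand: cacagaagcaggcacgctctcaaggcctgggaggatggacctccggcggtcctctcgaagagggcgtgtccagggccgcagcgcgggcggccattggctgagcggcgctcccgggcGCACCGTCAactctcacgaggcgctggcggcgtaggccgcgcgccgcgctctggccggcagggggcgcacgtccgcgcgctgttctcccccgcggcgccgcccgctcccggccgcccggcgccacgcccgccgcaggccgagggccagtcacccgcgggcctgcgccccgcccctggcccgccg
Srxn1, chr2:152105274-152105573, plus strand: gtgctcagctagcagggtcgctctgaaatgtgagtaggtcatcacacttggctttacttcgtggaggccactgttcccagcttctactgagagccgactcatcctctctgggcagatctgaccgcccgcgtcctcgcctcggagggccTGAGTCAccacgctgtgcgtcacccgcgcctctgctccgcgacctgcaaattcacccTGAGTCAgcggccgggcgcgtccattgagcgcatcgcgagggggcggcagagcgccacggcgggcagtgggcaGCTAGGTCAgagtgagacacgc
Slc7a11, chr3:50443564-50443863, minus strand: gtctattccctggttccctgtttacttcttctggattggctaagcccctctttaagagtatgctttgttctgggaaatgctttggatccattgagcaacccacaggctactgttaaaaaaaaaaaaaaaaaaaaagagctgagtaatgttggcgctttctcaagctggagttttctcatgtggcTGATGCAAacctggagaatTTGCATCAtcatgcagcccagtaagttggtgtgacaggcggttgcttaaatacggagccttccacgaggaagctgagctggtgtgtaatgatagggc

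To ask whether liraglutide changed the NRF2 program, all 17464 genes that passed a filter on low counts, all 10 NRF2 genes among them, were tested with edgeR's quasi-likelihood test, and p-values were adjusted by Benjamini-Hochberg over all of them. None of the 10 passed the adjusted threshold, and neither did any other gene (0.0% of those tested, smallest adjusted p 0.482). At an unadjusted p under 0.05, 9.59% of all genes were counted by edgeR, 1855 by DESeq2 and 1737 by limma-voom. Of the 10 NRF2 genes, 2 were counted at that level, Hmox1 and Slc7a11, both lower with liraglutide. Over all genes, 5.62% were lower at that level and 3.97% higher, that is 981 and 694 genes, and with library size alone as the scaling the split was 619 and 990. DESeq2 called 25 genes past its adjusted threshold (0.143%), none of them among the 10. Its independent filtering gave no adjusted p to 13210 genes, among them 5 of the 10 (Keap1, Nqo1, Hmox1, Gclm and Srxn1), which therefore could not be called. By sign, 4 of the 10 were higher and 6 lower, against 47.4% higher over all genes. Their median log2 fold change was −0.046, against −0.017 over all genes. In none of the 10 did the groups separate without overlap, which 1.49% of all genes did.

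**Figure D1:**
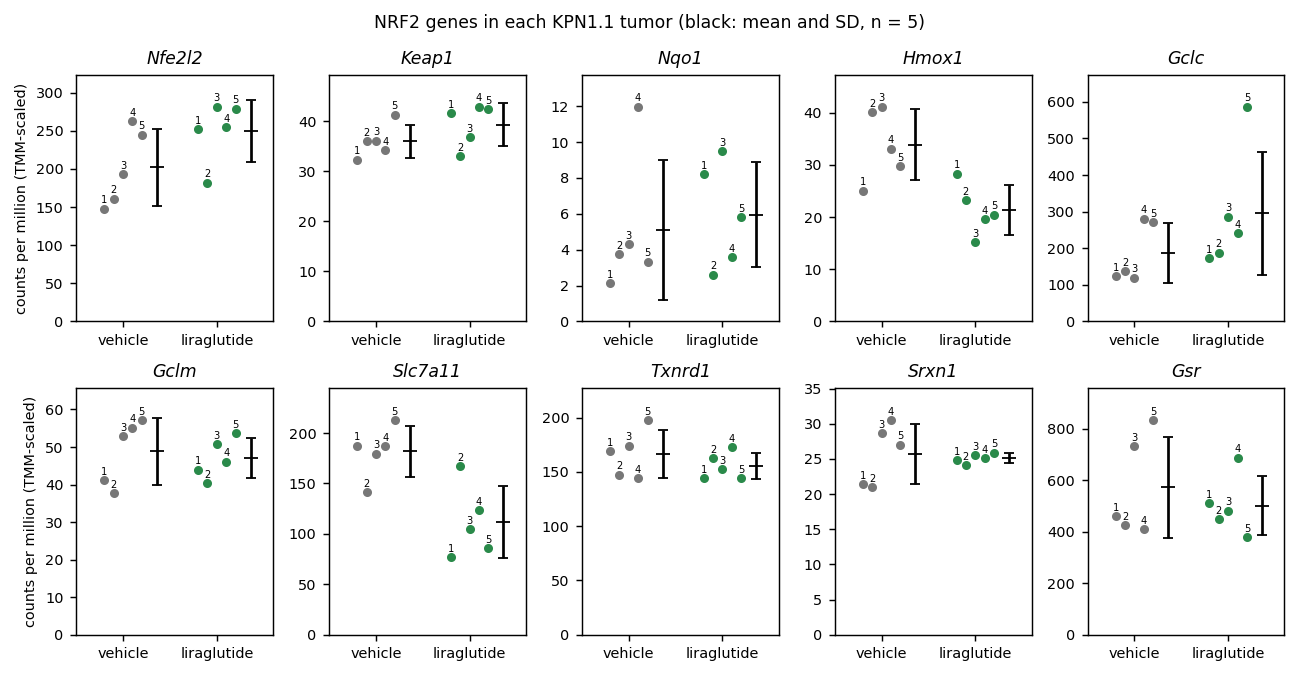
Level of each NRF2 gene in each tumor, as TMM-scaled CPM on a linear axis from 0, with vehicle tumors in gray and liraglutide tumors in green, numbered as labeled. The black bars give the mean and SD of 5 tumors per group. Hmox1 and Slc7a11 have 4 of 5 liraglutide tumors below every vehicle tumor, and the other genes overlap more widely.

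Slc7a11 (chr3:49846975-50398070, minus strand, GRCm39) encodes the light chain of the cystine/glutamate antiporter xCT, which brings in the cystine used to make glutathione. In vehicle tumors 1 to 5 it was at 188, 142, 180, 187 and 213 CPM. In liraglutide tumors 1 to 5 it was at 76.7, 167, 105, 124 and 86.0 CPM. Of the liraglutide tumors, 4 of 5 lay below every vehicle tumor, and only liraglutide tumor 2 reached into the vehicle range. The mean level was 182 ± 25.7 CPM in vehicle and 112 ± 35.9 CPM in liraglutide tumors (SD, n = 5), a ratio of 0.614 (95% interval 0.453 to 0.834). The log2 fold change was −0.70 (SE 0.20), with an unadjusted edgeR p of 0.0048 and an adjusted p of 0.482, so the difference did not pass. The two-sided exact permutation test gave p = 0.0159, where 5 against 5 tumors allow no p below 0.00794. DESeq2 gave an adjusted p of 0.0534, just outside the threshold. Slc3a2, the heavy chain that carries xCT to the membrane, was at 169 ± 68.7 CPM in vehicle and 143 ± 16.1 CPM in liraglutide tumors (log2 fold change −0.24, edgeR adjusted p = 0.716). Vehicle tumor 5 alone had 290 CPM of Slc3a2, and without it the log2 fold change was 0.05. The count ratio of Slc7a11 to Slc3a2 was 0.733 to 1.58 in vehicle and 0.596 to 1.14 in liraglutide tumors (two-sided exact permutation test, p = 0.0556). This ratio, like that of Gclc to Gclm, was chosen after the values of its genes were seen.

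Slc7a11 is also a known target of ATF4, the factor that drives amino acid synthesis and import under amino acid or endoplasmic reticulum stress. Of 16 listed genes of the ATF4 response, all tested, 15 had a log2 fold change below 0 and the median was −0.37. This rested on vehicle tumor 5, which had the highest level of 13 of the 16. Without it 9 were above 0 and 7 below, and the median was 0.042. At an unadjusted edgeR p under 0.05, 2 of the 16 were lower (12.5%, against 5.62% lower over all genes) and 0 were higher. Without vehicle tumor 4, 4 were lower (25%), where 1436 of 17816 genes were lower at that level and 15.2% were counted in either direction. Without vehicle tumor 3, liraglutide tumor 2 or vehicle tumor 5, 3 were counted (18.8%), 1 of them higher without vehicle tumor 5. The shares over all genes were then 8.03%, 13.8% and 13.5%. With all tumors, one was Phgdh, which makes serine, at 112 ± 25.04 CPM in vehicle and 63.8 ± 19.96 CPM in liraglutide tumors (log2 fold change −0.81, edgeR adjusted p = 0.482, DESeq2 adjusted p = 0.0474). The other was Vldlr, a lipoprotein receptor, at 62.7 ± 39.0 and 23.3 ± 14.4 CPM (log2 fold change −1.43, edgeR adjusted p = 0.489). Slc1a5, a glutamine transporter, was the exception in sign (log2 fold change 0.10, edgeR adjusted p = 0.931), and ran from −0.05 without vehicle tumor 1 to 0.54 without vehicle tumor 5. The part of these genes in the Slc7a11 result was not tested.

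Hmox1 (chr8:75820241-75827217, plus strand, GRCm39) encodes heme oxygenase 1, which opens heme to biliverdin, carbon monoxide and iron. Vehicle tumors 1 to 5 had 25.1, 40.1, 41.2, 33.1 and 29.8 CPM. Liraglutide tumors 1 to 5 had 28.3, 23.3, 15.2, 19.6 and 20.5 CPM. Every liraglutide tumor lay below the vehicle median, and 4 of 5 lay below all vehicle tumors. The overlap came from vehicle tumor 1 and liraglutide tumor 1. The mean level was 33.9 ± 6.83 CPM in vehicle and 21.4 ± 4.84 CPM in liraglutide tumors (SD, n = 5), a ratio of 0.632 (95% interval 0.476 to 0.837). The log2 fold change was −0.66 (SE 0.19), with an unadjusted edgeR p of 0.00421 and an adjusted p of 0.482. The two-sided exact permutation test gave p = 0.0159. Hmox1 did not pass the adjusted threshold in edgeR or limma-voom, and DESeq2 gave it an unadjusted p of 0.00127 and no adjusted p.

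The summed level of 6 listed erythroid markers was 27.5 to 74.5 CPM in vehicle and 16.2 to 33.7 CPM in liraglutide tumors. Of the 5 tested, all had a log2 fold change below 0, with a median of −2.02, and 4, all globins, were lower at an unadjusted edgeR p under 0.05, as 5.62% of all genes were. None passed the adjusted threshold. Hbb-bs, an adult beta globin, was at 30.1 ± 12.8 CPM in vehicle and 7.45 ± 4.41 CPM in liraglutide tumors (edgeR adjusted p = 0.482). Vehicle tumor 4 had 9.04 CPM of Hbb-bs, inside the liraglutide range of 2.83 to 13.65 CPM. The globins Hba-a1, Hba-a2 and Hbb-bt had few counts, at 3 to 79, 0 to 25 and 2 to 73 per tumor. Alas2, the erythroid enzyme of heme synthesis, was at 15.0 ± 3.96 and 13.7 ± 2.80 CPM. Macrophages that clear red cells are a known site of Hmox1 expression. The summed level of 11 listed macrophage markers was 594 to 1130 CPM in vehicle and 659 to 854 CPM in liraglutide tumors. Of the 9 tested, 7 had a higher mean log2 level with liraglutide, and the median log2 fold change was 0.17. The 2 that were lower were Cd163 and Mrc1, and Mrc1 had the highest group means of the list. Cd163, the receptor for hemoglobin bound to haptoglobin, was at 13.7 ± 9.61 CPM in vehicle and 6.40 ± 0.980 CPM in liraglutide tumors (log2 fold change −1.09, edgeR adjusted p = 0.513), and Mrc1, a mannose receptor, at 538 ± 253 and 322 ± 96.9 CPM (log2 fold change −0.74, edgeR adjusted p = 0.529). The part of red cells and macrophages in the Hmox1 result was not tested.

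Nfe2l2 (chr2:75504739-75534985, minus strand, GRCm39) was at 147, 161, 193, 262 and 245 CPM in vehicle tumors 1 to 5. In liraglutide tumors 1 to 5 it was at 252.3, 182, 281, 254 and 279 CPM. Vehicle tumors 1, 2 and 3 were low with liraglutide tumor 2, and the groups overlapped. The means were 202 ± 50.4 and 250 ± 40.3 CPM (SD, n = 5), with a log2 fold change of 0.31 (95% interval −0.087 to 0.70, edgeR adjusted p = 0.593). Keap1 (chr9:21141026-21150679, minus strand, GRCm39) varied least in its extremes, with the highest tumor at 1.33 times the lowest. It was at 32.3, 35.99, 36.1, 34.2 and 41.3 CPM in vehicle tumors and at 41.6, 33.0, 36.8, 42.9 and 42.4 CPM in liraglutide tumors. Its log2 fold change was 0.13 (95% interval −0.11 to 0.37, edgeR adjusted p = 0.70), so the interval allows no rise in Keap1 beyond 1.29-fold. An antisense gene at the Keap1 locus, Gm16754, had 34 to 63 counts against 344 to 570 for Keap1, and the strand setting of the counting is not given in the sources used here.

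Among 18 listed regulators of NRF2, 17 were tested, and at an unadjusted edgeR p under 0.05 1 was higher and 2 were lower (17.6%, against 9.59% over all genes). That share was 5.88% without vehicle tumor 2 (5.86% over all genes) and 29.4% without vehicle tumor 5 (13.5% over all genes), and it was also 5.88% without liraglutide tumor 3, 4 or 5 (6.02%, 7.21% and 5.2% over all genes). Cul3, the scaffold of the ubiquitin ligase that KEAP1 serves, was at 304, 317, 325, 327 and 320 CPM in vehicle tumors 1 to 5. In liraglutide tumors 1 to 5 it was at 291, 255, 255, 282 and 223 CPM. The groups did not overlap, and the log2 fold change was −0.29 (SE 0.091, edgeR adjusted p = 0.482). The two-sided exact permutation test gave p = 0.00794, the smallest that 5 against 5 allow, as it does for any groups without overlap. Cul3 was the only regulator whose groups did not overlap, 1 of 17 tested, against 1.49% of all genes. Cand1, an exchange factor for cullin ligases, had a log2 fold change of −0.24 (edgeR adjusted p = 0.503). Bach1 and Bach2, which compete with NRF2 for MAF partners, had log2 fold changes of 0.22 (edgeR adjusted p = 0.531) and 0.78 (edgeR adjusted p = 0.515), and Bach2 was low, at 1.71 ± 0.829 and 2.96 ± 0.798 CPM. Sqstm1, the autophagy receptor p62 that binds KEAP1, was at 377 ± 106 and 301 ± 35.7 CPM (log2 fold change −0.32, edgeR adjusted p = 0.563). Vehicle tumor 5 had 559 CPM of Sqstm1 and the other vehicle tumors 291 to 361 CPM. With a tumor left out, its log2 fold change ran from −0.405 to −0.132. Mafg, a small MAF partner, had a log2 fold change of −0.045 that turned to 0.011 with library size alone.

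Glutamate-cysteine ligase, which makes the first bond of glutathione, has a catalytic subunit, GCLC, and a modifier subunit, GCLM. Gclc (chr9:77661797-77701770, plus strand, GRCm39) was at 124, 137, 120, 281 and 271 CPM in vehicle tumors 1 to 5. In liraglutide tumors 1 to 5 it was at 173, 188, 286, 242 and 586 CPM. Liraglutide tumor 5 stood far above the rest, and the vehicle tumors split into a low set of 3 and a high pair. The log2 fold change was 0.66 (95% interval −0.16 to 1.48, edgeR adjusted p = 0.583), and without liraglutide tumor 5 it was 0.26. Gclm (chr3:122039126-122065061, plus strand, GRCm39) was at 41.1, 37.7, 52.9, 55.1 and 57.2 CPM in vehicle and 44.0, 40.3, 50.7, 46.1 and 53.7 CPM in liraglutide tumors. Its means were 48.8 ± 8.80 and 47.0 ± 5.34 CPM (SD, n = 5), and the log2 fold change was −0.055 (95% interval −0.36 to 0.25, edgeR adjusted p = 0.905), with a sign that turned when vehicle tumor 4 or 5 or liraglutide tumor 2 was left out. The count ratio of Gclc to Gclm was 3.03, 3.63, 2.26, 5.10 and 4.73 in vehicle and 3.94, 4.66, 5.64, 5.24 and 10.9 in liraglutide tumors (two-sided exact permutation test, p = 0.0714).

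The reducing enzymes did not separate the groups. Gsr (chr8:34142551-34188192, plus strand, GRCm39), glutathione reductase, was at 461, 426, 733, 410 and 834 CPM in vehicle and 512, 449, 482, 688 and 379 CPM in liraglutide tumors. Vehicle tumors 3 and 5 and liraglutide tumor 4 were high, and the log2 fold change was −0.19 (95% interval −0.70 to 0.31, edgeR adjusted p = 0.787). Txnrd1 (chr10:82669785-82733546, plus strand, GRCm39), cytosolic thioredoxin reductase, was at 169, 147, 174, 144 and 198 CPM in vehicle and 144, 162, 153, 173 and 144 CPM in liraglutide tumors. Its log2 fold change was −0.10 (95% interval −0.34 to 0.13, edgeR adjusted p = 0.754), and Eid3, a gene within its locus on the same strand, had 48 to 90 counts against 1454 to 2447. Srxn1 (chr2:151947436-151957687, plus strand, GRCm39), which encodes sulfiredoxin and repairs overoxidized peroxiredoxins, was at 21.4, 21.0, 28.7, 30.5 and 27.0 CPM in vehicle and 24.8, 24.1, 25.6, 25.1 and 25.9 CPM in liraglutide tumors. The liraglutide tumors lay inside the vehicle range, with a coefficient of variation of 2.81% against 16.8%. The means differed little (log2 fold change −0.036, 95% interval −0.31 to 0.24, edgeR adjusted p = 0.936), and the sign turned with library size alone (0.017).

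Nqo1 (chr8:108113835-108129934, minus strand, GRCm39), the quinone reductase often taken as the reporter of NRF2 activity, was low, at the 33.9th percentile of mean CPM among genes tested and with 31 to 143 counts per tumor. It was at 2.14, 3.75, 4.30, 11.97 and 3.34 CPM in vehicle tumors 1 to 5. In liraglutide tumors 1 to 5 it was at 8.21, 2.61, 9.48, 3.59 and 5.81 CPM. It varied most of the 10 genes, with the highest tumor, vehicle 4, at 5.59 times the lowest, vehicle 1. The log2 fold change was 0.22 (95% interval −0.84 to 1.28, edgeR adjusted p = 0.89), it was 0.83 without vehicle tumor 4, and a change of more than 2.43-fold upward lay outside the interval.

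**Figure D2:**
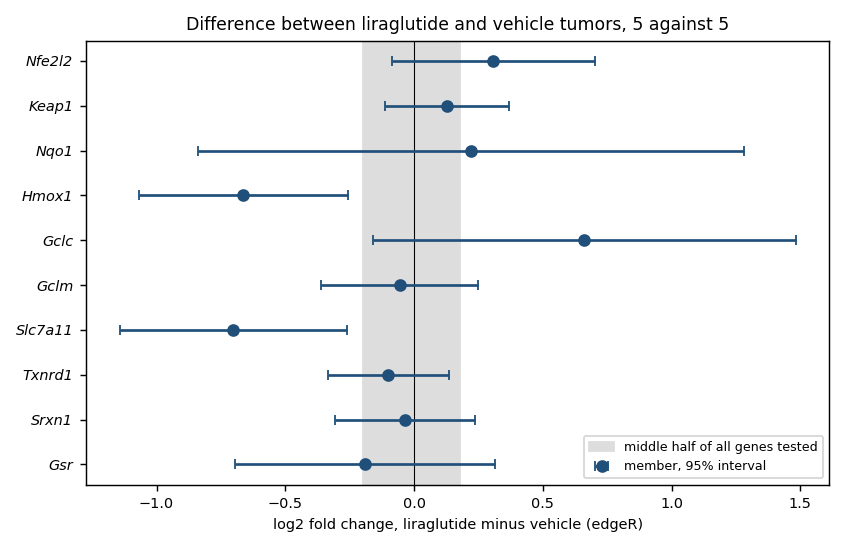
Log2 fold change, liraglutide minus vehicle, of each NRF2 gene from edgeR, with its 95% interval, 5 tumors against 5. The gray band is the interquartile range of all genes tested, from −0.20 to 0.18, and the intervals of Hmox1 and Slc7a11 alone lie below 0.

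Per kilobase of exon, vehicle levels ran from Gsr (82.6 ± 28.4 CPM per kilobase) through Nfe2l2 (36.9 ± 9.23), Gclc (29.8 ± 13.1), Txnrd1 (23.5 ± 3.07), Hmox1 (19.3 ± 3.89), Slc7a11 (11.7 ± 1.66), Keap1 (6.33 ± 0.587), Gclm (6.14 ± 1.11) and Srxn1 (2.74 ± 0.460) to Nqo1 (1.86 ± 1.43), all in CPM per kilobase with the SD over 5 tumors. Vehicle tumors did not overlap between Gsr and Nfe2l2, between Hmox1 and Slc7a11, between Slc7a11 and Keap1, or between Gclm and Srxn1. The other neighbors in this order overlapped. With the length of the canonical transcript the order was the same, but Hmox1 and Slc7a11 overlapped, while Txnrd1 and Hmox1, and Keap1 and Gclm, did not. In liraglutide tumors the means ran from Gsr (72.4 CPM per kilobase) to Nqo1 (2.16), but Gclc (47.1) was above Nfe2l2 (45.7), and Slc7a11 (7.20) stood beside Keap1 (6.91). With the canonical length, Gclc (85.6) was above Nfe2l2 (69.5) in them and Keap1 (12.3) above Slc7a11 (12.1). These orders are of group means and do not hold in every tumor. Per kilobase of exon, Gclc was above Gsr in liraglutide tumor 5 (93.6 against 54.7), and Nqo1 was above Srxn1 in vehicle tumor 4 and liraglutide tumors 1 and 3.

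Whether the genes varied together was asked over the 10 tumors, for all 45 pairs, with permutation p-values adjusted by Benjamini-Hochberg over the pairs. Pearson's r was above 0 for 31 pairs, with a median of 0.205, and 2 pairs passed. Gclm and Srxn1 had r = 0.872 and Spearman's rho = 0.927 (permutation p = 0.00042 and 0.00033, adjusted p = 0.0189 and 0.0148). Without the 2 tumors farthest from the Gclm median, vehicle 2 and liraglutide 2, r was 0.834. Txnrd1 and Gsr had r = 0.851 and rho = 0.782 (permutation p = 0.00137 and 0.0102, adjusted p = 0.0308 and 0.153), and r was 0.639 without vehicle tumors 5 and 3, so that relation rested in part on those tumors. Both pairs also passed with the group means subtracted. With library size alone, Gclm and Srxn1 passed and Txnrd1 and Gsr did not. Gclm and Srxn1 did not pass without vehicle tumor 2 or without liraglutide tumor 3, and Txnrd1 and Gsr passed only when the tumor left out was vehicle 1 or liraglutide 1. Nfe2l2 and Gclc also passed without liraglutide tumor 1.

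The Nfe2l2 transcript had its closest relations with Gclc (r = 0.794, rho = 0.842, permutation p = 0.00549 and 0.00381, adjusted p = 0.0823 and 0.0857) and Nqo1 (r = 0.731, rho = 0.758, permutation p = 0.0185 and 0.014, adjusted p = 0.209 and 0.158), which did not pass. Without vehicle tumors 1 and 2 these were 0.716 and 0.652. Hmox1 and Slc7a11, the 2 genes at an unadjusted p under 0.05, had r of −0.47 and −0.50 with Nfe2l2 (adjusted permutation p = 0.439 and 0.427) and of 0.46 with each other (adjusted p = 0.439). These r include the difference between the groups, for which the 2 genes were picked, so they are no separate result. By tumor, vehicle 5 had the highest level of 4 of the 10 genes and was above the mean for 9 of 10. Vehicle tumors 1 and 2 had the lowest level of 3 and 2 genes and were above the mean for 2 each. The liraglutide tumors were above the mean for 2 to 6 genes each and held the highest level of 3 genes and the lowest of 4.

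**Figure D3:**
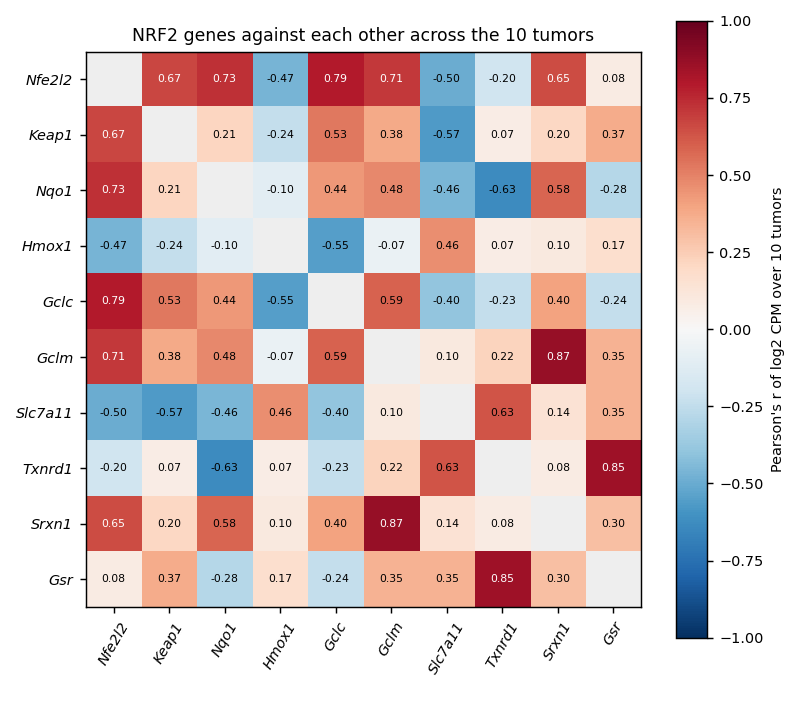
Pearson's r of log2 CPM between each pair of NRF2 genes over the 10 tumors, on a color scale from −1 (blue) to 1 (red), with the value in each cell. Gclm with Srxn1 (0.87) and Txnrd1 with Gsr (0.85) passed the adjusted test, and Hmox1 and Slc7a11 have negative values with Nfe2l2, Keap1, Nqo1 and Gclc. All values include any difference between the groups.

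Over all genes tested outside the 10, those most like each member in log2 CPM, after the group means were removed, are given as a description over 10 tumors. Being the highest of all genes tested, they are high by selection. Nfe2l2 was closest to Gm20559 (r = 0.993), Tmem220 (0.989) and Iqgap2 (0.988). Gclm was closest to Helz2 (r = 0.992), Mapkapk3 (0.982) and Slc35c1 (0.98). Slc7a11 was closest to Timmdc1 (r = 0.90), Kif5c (0.899) and Col9a3 (0.879), and Hmox1 to Gm29123 (r = 0.913), Cfap69 (0.91) and Gm47896 (0.908). For Gclc they were Cdc42bpg (r = 0.98) and Gm44418 (0.961), and for Nqo1 Ssh1 (r = 0.96), Gm37499 (0.959) and Rcbtb2 (0.957). For Srxn1 they were Pdcd6 (r = 0.975), Gm10734 (0.961) and Tm9sf2 (0.959), and for Keap1 Gm42519 (r = 0.911), Mst1r (0.906) and Fer1l4 (0.902). Txnrd1 was closest to A830036E02Rik (r = 0.951) and Kif21b (0.949), and Gsr to Capn5 (r = 0.932), Arid5a (0.929) and Nucks1 (0.927).

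The wider NRF2 program was taken as 72 listed genes of glutathione use, the thioredoxin system, NADPH supply, heme and iron handling and detoxification, of which 62 were tested. At an unadjusted edgeR p under 0.05, 7 were counted (11.3%, against 9.59% over all genes), 2 higher and 5 lower, and none passed the adjusted threshold in edgeR. With a tumor left out, the count was 14 without vehicle tumor 4 (22.6%, against 15.2% over all genes), 4 without vehicle tumor 2 (6.35% against 5.86%), liraglutide tumor 3 (6.35% against 6.02%) or liraglutide tumor 4 (6.45% against 7.21%), and 3 without liraglutide tumor 5 (4.84% against 5.2%). Without vehicle tumor 5 it was 6 (9.52%) where the share over all genes was 13.5%. By sign, 26 were higher and 36 lower, against 36 and 27 without vehicle tumor 5. Their median log2 fold change was −0.035, and 0.018 with library size alone. The groups of 1 of the 62 did not overlap, as did those of 1.49% of all genes.

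Of 24 genes of glutathione use and conjugation, 18 were tested, and 1 was lower at that level and 0 higher (5.56%, against 9.59% over all genes). That gene was Gstp1, a glutathione transferase, at 48.8 ± 6.66 CPM in vehicle and 38.7 ± 5.13 CPM in liraglutide tumors (log2 fold change −0.34, edgeR adjusted p = 0.498). Abcc1, an exporter of glutathione conjugates, had a log2 fold change of −0.41 (edgeR adjusted p = 0.541). The transferases Gstm1 and Gstm2 had the most positive values by p but wide spread, with Gstm1 at 45.9 ± 68.7 and 115 ± 84.9 CPM (log2 fold change 1.32, edgeR adjusted p = 0.613) and Gstm2 at 4.70 ± 3.24 and 8.90 ± 7.31 CPM (log2 fold change 0.92, edgeR adjusted p = 0.593). Vehicle tumor 4 had 168 CPM of Gstm1 and the other vehicle tumors 11.97 to 24.7 CPM, and without it the log2 fold change of Gstm1 was 2.92 (edgeR adjusted p = 0.149) and 3 genes of the list were higher and 2 lower (27.8%, against 15.2% over all genes). Gstm2 was at 21.3 CPM in liraglutide tumor 5 and at 3.43 to 9.71 CPM in the other liraglutide tumors, and its log2 fold change was 0.31 without that tumor and 1.46 without vehicle tumor 4. Reads of the near-identical Gstm genes may be shared between them, so these values are uncertain.

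All 15 genes of the thioredoxin, peroxiredoxin and superoxide system were tested, and 2 were lower at an unadjusted p under 0.05 and 0 higher (13.3%, against 9.59% over all genes), with a median log2 fold change of −0.19. Without liraglutide tumor 2, 1 was higher and 3 lower (26.7%, against 13.8% over all genes). Without vehicle tumor 5, 1 was higher and 2 lower (20%, against 13.5%), and the median was −0.097 without vehicle tumor 4, −0.11 without vehicle tumor 5 or liraglutide tumor 1 and −0.081 in limma-voom. Both genes counted with all tumors were peroxiredoxins, which reduce peroxides with thioredoxin. Prdx5 was at 158 ± 37.8 CPM in vehicle and 112 ± 18.6 CPM in liraglutide tumors (log2 fold change −0.50, edgeR adjusted p = 0.482). Prdx1, the more abundant in CPM, was at 789 ± 135 and 628 ± 28.5 CPM (log2 fold change −0.33, edgeR adjusted p = 0.482). Catalase (Cat) and mitochondrial superoxide dismutase (Sod2) had log2 fold changes of 0.30 (edgeR adjusted p = 0.626) and 0.21 (edgeR adjusted p = 0.657).

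None of the 6 genes of NADPH supply reached an unadjusted p under 0.05, and their values lay close to 0, from Idh1 at 0.10 (edgeR adjusted p = 0.873) to G6pdx, the entry enzyme of the pentose phosphate pathway, at −0.11 (edgeR adjusted p = 0.786). Taldo1, transaldolase, was at −0.087. Of 9 heme and iron genes, 8 were tested and none was counted either in edgeR with TMM scaling, with 3 above 0 and 5 below. Slc40a1, the iron exporter ferroportin, was at 6.52 ± 2.10 CPM in vehicle and 9.97 ± 2.88 CPM in liraglutide tumors (log2 fold change 0.62, edgeR adjusted p = 0.523). Its unadjusted p was 0.052 there and 0.0365 in DESeq2. In DESeq2, with both other scalings and with both other filters, 1 gene of the list was counted (11.1% to 12.5% of those tested). The shares over all genes were 10.6% in DESeq2, 9.55% and 9.21% with the scalings, and 6.92% and 10.4% with the filters. Ftl1, a ferritin light chain, had a log2 fold change of −0.16 (edgeR adjusted p = 0.607), Slc48a1, a heme transporter, 0.17 (edgeR adjusted p = 0.684), and Hmox2, the constitutive heme oxygenase, −0.099 (edgeR adjusted p = 0.778).

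Of 18 detoxification genes, 15 were tested, with 2 higher and 2 lower at an unadjusted p under 0.05 (26.7%, against 9.59% over all genes). With a tumor left out the share was between 6.25%, without vehicle tumor 2 (5.86% over all genes) or liraglutide tumor 3 (6.02%), and 40%, without vehicle tumor 4 (15.2% over all genes). It was 6.67% without liraglutide tumor 5 (5.2% over all genes) and 13.3% without liraglutide tumor 4 (7.21%). Without vehicle tumor 1, 3 or 5 it was 12.5%, against 6.74%, 8.03% and 13.5% over all genes. Akr1b8, an aldo-keto reductase, was at 85.0, 90.0, 83.2, 69.8 and 65.7 CPM in vehicle tumors 1 to 5. In liraglutide tumors 1 to 5 it was at 65.7, 63.7, 48.8, 61.0 and 49.8 CPM. The groups touched without overlap, between vehicle tumor 5 at 65.73 and liraglutide tumor 1 at 65.66, and the log2 fold change was −0.45 (SE 0.13, edgeR adjusted p = 0.482). Esd, an esterase, was lower (log2 fold change −0.32, edgeR adjusted p = 0.519). Osgin1, a stress-induced growth inhibitor, was at 20.2 ± 5.49 CPM in vehicle and 28.7 ± 5.99 CPM in liraglutide tumors (log2 fold change 0.50, edgeR adjusted p = 0.51), and Pir, pirin, at 40.0 ± 18.4 and 59.2 ± 7.73 CPM (log2 fold change 0.56, edgeR adjusted p = 0.515). Genes of this group therefore lay in both directions.

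Cystine import also protects lipids from peroxidation. Of 8 listed genes of lipid peroxide defense and ferroptosis, 6 were tested. Ptgs2, a prostaglandin synthase that is often used to mark ferroptosis, was at 88.8 ± 23.0 CPM in vehicle and 54.0 ± 15.1 CPM in liraglutide tumors (log2 fold change −0.72, edgeR adjusted p = 0.482) and was the only 1 counted at an unadjusted p under 0.05 (16.7%, against 9.59% over all genes). Tfrc, the transferrin receptor, had a log2 fold change of −0.35 (edgeR adjusted p = 0.622). Dhodh and Aifm2, which reduce ubiquinone in membranes, had log2 fold changes of 0.12 (edgeR adjusted p = 0.828) and 0.060 (edgeR adjusted p = 0.911), the last near 0 and turning sign without vehicle tumor 2.

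**Figure D4:**
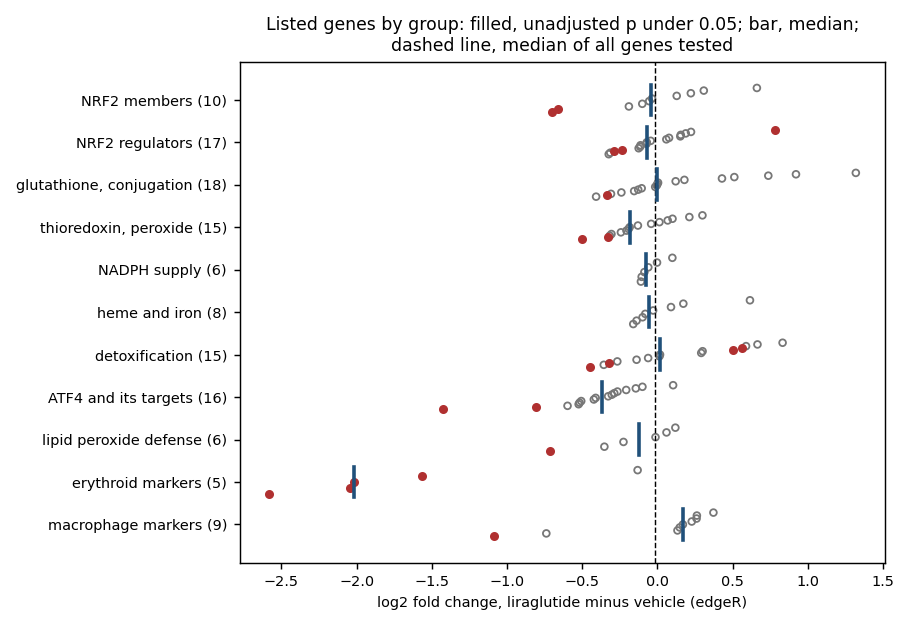
Log2 fold change, liraglutide minus vehicle, of every tested gene of the NRF2, ATF4, lipid peroxide, erythroid and macrophage lists (number tested in parentheses), with genes at an unadjusted edgeR p under 0.05 filled in red, the list median as a blue bar and the median of all genes tested (−0.017) as a dashed line. The erythroid markers have a median of −2.02 and the ATF4 genes one of −0.37, which was 0.042 without vehicle tumor 5.

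Other host tissues also differed between tumors. The summed level of skin keratins, 5 listed keratinocyte markers of which 4 were tested, was 8.36 to 16.9 CPM in vehicle and 6.67 to 201 CPM in liraglutide tumors, highest in liraglutide tumor 2, the tumor with the highest Slc7a11 in its group. All 4 had log2 fold changes above 0 (median 2.96, and 1.95 without liraglutide tumor 2), 3 of them at an unadjusted edgeR p under 0.05 (75%, against 9.59% over all genes). None of the 4 was counted without liraglutide tumor 2, in limma-voom or with the replicate block. That of 5 muscle markers was 25.6 to 208 CPM in vehicle and 53.4 to 280 CPM in liraglutide tumors, and that of 7 fibroblast markers was 1400 to 3350 CPM in vehicle and 1920 to 3600 CPM in liraglutide tumors. That of 4 pan-leukocyte markers was 84.8 to 179 and 102 to 172 CPM. Endothelial, neutrophil and adipocyte markers overlapped in the same way, at 90.1 to 139 and 92.3 to 124 CPM, 5.09 to 11.9 and 5.72 to 12.2 CPM, and 15.3 to 79.7 and 18.3 to 47.8 CPM. The log2 fold changes of all 5 muscle markers were above 0 (median 0.83), with none at an unadjusted edgeR p under 0.05, but 4 without vehicle tumor 3 (80%, against 8.03% over all genes) and 4 with the replicate block (against 14.8%). Those of the 3 adipocyte markers tested were below 0 (median −0.71), but without vehicle tumor 3 they were above 0 for 2 of the 3 (median 0.13). Their part in the results on NRF2 genes was not tested.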

How the data were processed

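RNA-Seq libraries were made after ribosomal RNA depletion with a stranded kit. Per the paper's methods, the authors aligned read pairs to GRCm39 (Bowtie, TopHat), took gene counts with featureCounts, and filtered samples at quality assessment, whereas the submitters' processing notes name the builds mm10 and GRCh38. The annotation release, the strand setting and the treatment of reads with several matches are not given in the sources used here. The authors deposited raw counts, whole numbers with no normalization. Group and tumor number were taken from the sample titles. Of the versioned gene identifiers, 51731 (93.38%, with 98.31% of the counts) matched GENCODE M39 on GRCm39 without their version, and only 35 had the same version, so positions and lengths may differ in detail from those used in counting.

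Genes were filtered with filterByExpr, scaled by TMM and fitted in edgeR 4.0.16 (quasi-likelihood F test, R 4.3.3), with treatment as the single factor. A call needed an adjusted p (Benjamini-Hochberg) under 0.05 together with a log2 fold change beyond 0.58 in either direction. DESeq2, which the study used, was run here in version 1.42.0. It and limma-voom (limma 3.58.1) were alternatives, beside other scalings, other filters, the tumor number as a block, and each tumor left out. List counts in these settings were added after the data were seen. Single genes were compared by exact permutation over 252 splits, and pairs over 100000 permutations of log2 CPM (prior count 2). The steps were tested on simulated data. Tumors of a group differed by at least 9.31 times counting noise (chi-square per degree of freedom), so none was a repeated library. Counting floors cover counting error only. Coordinates of genes are GRCm39 and those of promoters are GRCm38.p6, and no coordinate was converted.

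The 10 genes, the lists and the tests were chosen with earlier results of these data known. All 10 are named, with the 2 genes of smallest p in each direction in each list, Slc3a2, Mafg, Bach1, Cul3 and Sqstm1, and the 3 genes most like each of the 10. A few of these genes, and some details of the cell line, are not reported here. Printed promoters were to be those with an ARE core. Slc7a11 was added later.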

Additional observations from a re-analysis of the deposited data

Results flagged for a closer look

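A tumor was set apart where its gap to the nearest tumor of its group, divided by the range of the group, was above 0.71, Dixon's critical value for 5 values. The 10 genes gave 20 groups, of which chance sets apart about 1 in 20. Nqo1 in vehicle tumor 4 was at 11.97 CPM, with a gap of 0.78 of the range. Gclc in liraglutide tumor 5 was at 586.5 CPM, with a gap of 0.728 of the range.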

How the results depend on the processing

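Of 730 single-gene comparisons over 17 other settings, 714 kept their sign and did not pass (16 of them in DESeq2, with no adjusted p), 15 changed sign and 1, Phgdh in DESeq2, passed. Hmox1 and Slc7a11 were at an unadjusted p under 0.05 in all 17, with adjusted p from 0.252 to 0.620 for Hmox1 (DESeq2 gave none) and from 0.0534 to 0.620 for Slc7a11 in the settings with all tumors, and from 0.2003 to 0.9003 and from 0.2076 to 0.9003 with a tumor left out. DESeq2 called 25 genes and edgeR and limma-voom 0. With a tumor left out, between 2 and 3 of the 10 genes were at an unadjusted p under 0.05, between 0 and 1 did not overlap (Hmox1 without vehicle tumor 1 or liraglutide tumor 1, Slc7a11 without vehicle tumor 2 or liraglutide tumor 2), between 3 and 14 of the wider list were counted, and between 0 and 3 pairs passed. Over all genes, 5.2% to 15.2% were then at an unadjusted p under 0.05 and 1.78% to 4.68% did not overlap. No pair passed without vehicle tumor 2 or liraglutide tumor 3. With library size alone 1 pair passed, Gclm and Srxn1, and with group means subtracted 3 did, Nfe2l2 and Gclm being the third. The cause of these shifts was not tested.

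The log2 fold changes that changed sign were those of Srxn1 (0.017 with library size alone, and −0.102 to 0.042 with a tumor left out, above 0 without vehicle 3 at 0.01 or vehicle 4), Gclm (−0.136 to 0.016 with a tumor left out, above 0 without vehicle 4 at 0.001, vehicle 5 or liraglutide 2 at 0.005), Mafg (0.011 with library size alone, and −0.09 to 0.005, above 0 without vehicle 2), Slc1a5 (−0.05 to 0.544, below 0 without vehicle 1 or, at −0.039, vehicle 2), Aifm2 (−0.001 to 0.187, below 0 without vehicle 2) and Nqo1 (−0.007 to 0.832, below 0 without liraglutide 3). Without vehicle 5, G6pdx (−0.178 to 0.002), Taldo1 (−0.179 to 0.042) and Slc3a2 (−0.346 to 0.05) were above 0.

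Vehicle and liraglutide tumors share the numbers 1 to 5, but correlations of same-numbered deviations from the group means were 0.354, 0.566, −0.0753, 0.0681 and 0.389, with a mean of 0.2603 against −0.0682 between other numbers. Not every pair was above 0.1, 1 pair of 5 correlated best within its own number, and no label ties the numbers to a batch, so they were not taken as pairs. With the replicate block, 4 of the 10 genes (Nfe2l2, Hmox1, Gclc and Slc7a11) and 14 of the wider list were at an unadjusted p under 0.05, against 2585 of all genes, and none passed the adjusted threshold in edgeR.

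With 5 tumors per group, the spread between tumors rather than depth limited most values, and Nqo1, at 31 to 143 counts, was the least precise of the 10 genes.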
